A study of Mus musculus with 16 samples.

Results

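The immunoglobulin heavy chain locus (Igh) was examined for Ago2-bound RNA in activated mouse B cells, over 175 kb of chromosome 12 that reach from Igha to the J segments. The members were all regions of the deposited Ago2 CLIP comparison that lie in this interval on either strand, 549 of 962700 regions in all. The rule used position only, though it was set with earlier results of these data known. Of the 549 regions, 519 lay on the strand of the constant genes (the minus strand) and 30 on the opposite strand.

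The series compared splenic B cells of C57B6L/J mice labelled KO with cells labelled Flox, and its title names miR-221-3p and miR-222-3p as the miRNAs under study. All cells, KO and Flox alike, had been cultured for 4 days with an antibody to CD40 at 500 ng/ml, IL-4 at 25 ng/ml and IL-21 at 10 ng/ml. Each genotype had 4 RNA-seq libraries and 4 libraries of Ago2 HITS-CLIP, which sequences RNA fragments crosslinked to Ago2, an Argonaute protein that miRNAs guide to matching RNAs. The labels give neither the Cre driver nor the age or pooling of the mice. The labels also do not say that replicates came from separate mice, so the p-values measure only the spread between these libraries.

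The locus carries the J segments, which become part of the variable exon, followed in the direction of transcription by Ighm, Ighd, Ighg3, Ighg1, Ighg2b, Ighg2c, Ighe and Igha, the constant genes of IgM, IgD, the IgG subclasses, IgE and IgA. In class switching, B cells first transcribe a constant gene together with the repetitive switch region upstream of it, as a noncoding germline transcript. The enzyme AID then acts on the transcribed switch regions, and the DNA between the donor and the acceptor is lost. CD40 signals with IL-4 are known to direct mouse B cells to IgG1 and IgE.

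The miRNAs named in the title share a seed, the stretch that pairs with target RNAs, and are shown because Ago2 binding was compared with and without them. In the mature sequences from RefSeq (GRCm38.p6, chromosome X, minus strand), capitals mark the seed, bases 2 to 8 from the 5′ end.
miR-221-3p: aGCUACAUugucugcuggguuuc
miR-222-3p: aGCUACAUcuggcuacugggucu
The first 8 bases are the same, and 11 of 23 positions are identical when both are read from the 5′ end.

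The KO libraries of RNA-seq held 22947689 to 39236132 reads, and the Flox libraries 25421025 to 39616596. No KO library had a read at Mir221 (0 in each), against 0, 0, 3 and 1 in Flox libraries 1 to 4, and Mir222 was at 0 throughout, so these rows could not check the labels. Among B cell markers, Cd79a, whose protein signals for the antigen receptor, had 15349 ± 1147 normalized counts in KO libraries and 13559 ± 1961 in Flox libraries, and Ms4a1, which encodes CD20, had 14980 ± 991 in KO libraries and 13817 ± 704 in Flox libraries (SD, n = 4 each). Of 10 T cell markers, 3 passed (Cd2, Thy1 and Lck), while Cd3e, Cd3d, Cd3g, Cd4, Cd8a and Trac averaged under 10 normalized counts and Cd8b1 was at 0. The T cell list summed to 5515 to 6472 in KO libraries and 5167 to 5988 in Flox libraries, and the myeloid list, with S100a8 and S100a9 at 0, to 352 to 535 in KO libraries and 328 to 463 in Flox libraries. The erythroid and platelet list, with 4 of 8 genes at 0, summed to 6.9 to 50.8 in KO libraries and 36.1 to 67.1 in Flox libraries.

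Ago2 regions on the strand of the genes covered most of the length from the J segments through Ighd, of Ighg1 and the 8.86 kb before it, and of Ighe. They were sparse or missing over most of the rest. Coverage here is the share of a length that lies in regions, counted in the 5-nt bins of the output. On the strand of the genes 23.0% of the 175 kb was covered, and on the opposite strand 1.27%. The J interval, the 8 gene spans and the 8 stretches between them held 3.13%, 47.3% and 49.5% of the covered bins of the locus, both strands counted. The locus held 0.0646% of all bins of the output, and the median width of a region was 50 nt at Igh and 50 nt over all regions. The output gives 1 comparison over all libraries, so no CLIP value has an error between replicates and none was tested.

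**Figure D1:**
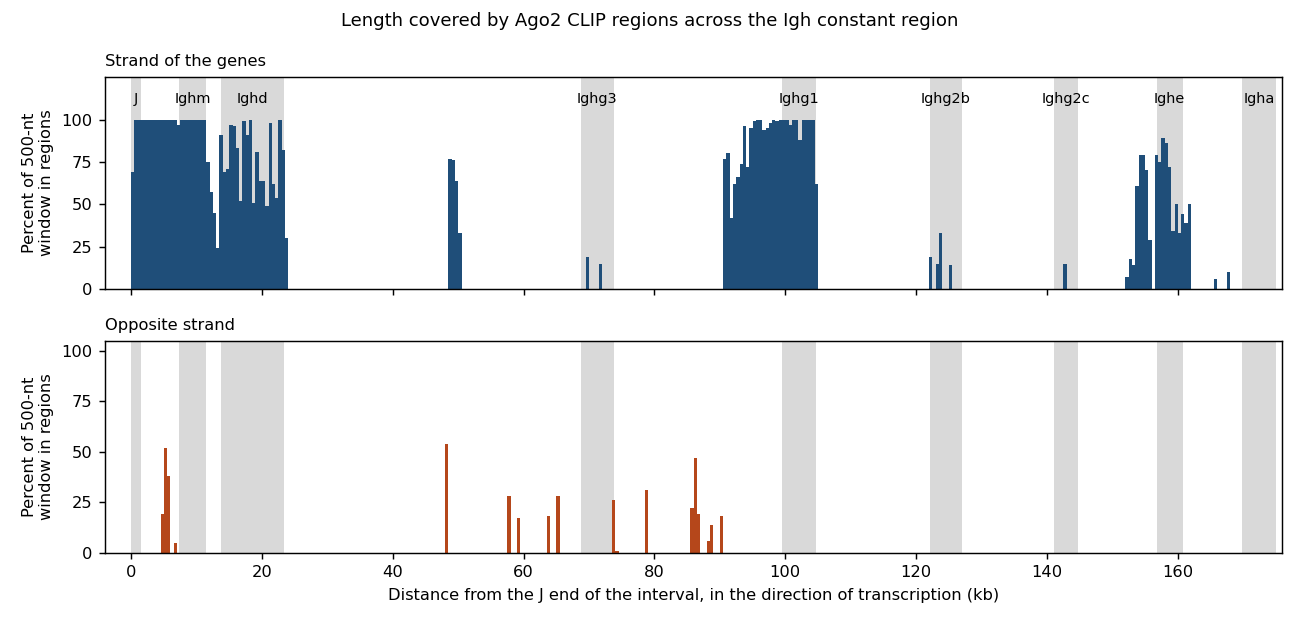
Percent of each 500-nt window that lies in Ago2 regions against distance in kb from the J end of the interval, on the strand of the genes (top) and the opposite strand (bottom); grey bands are the J segments and the constant gene spans. Coverage is continuous from the J segments through Ighm, broken over Ighd, returns before and in Ighg1 and around Ighe, and the 30 regions of the opposite strand lie outside all constant gene spans.

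Among the constant genes, those of the starting class and of the classes that CD40 and IL-4 are known to induce were widely covered. Ighm, the constant gene of IgM (113418558 to 113422730), had 99.9% of its span in 44 regions. Ighg1 (113325240 to 113330523) had 98.6% of its span in 69 regions. Ighe (113269260 to 113273248) had 61.3% in 32 regions, and Ighd, which is transcribed with Ighm, 78.4% in 91 regions. The 2.23 kb between Ighm and Ighd were 53.5% covered in 16 regions.

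The remaining constant genes had little or no coverage. Ighg2b had 8.15% of its span in 4 regions, Ighg3 3.39% in 2 regions and Ighg2c 2.08% in 1 region, all in state 1, the class with differences near 0. No region was listed in Igha. The deposited output lists regions only, so a stretch without one is not shown to be free of Ago2-bound RNA. The IgG genes resemble each other in sequence, and how reads that match several genes were treated is not given in the sources used here, so the low values of Ighg3, Ighg2b and Ighg2c are uncertain.

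RNA levels per kb of gene span, averaged over the 8 libraries, were 73864 normalized counts for Ighm, 20309 for Ighg1, 15350 for Ighe, 278.1 for Ighd, 97.6 for Ighg2b, 61.0 for Igha, 48.1 for Ighg3 and 22.5 for Ighg2c. Coverage had the same order except at Ighd, which was covered more widely than Ighe at a lower RNA level, and at Igha, which had no region although its RNA level lay above those of Ighg3 and Ighg2c. Gene span includes introns, so the RNA level per kb moves with the share of intron in a gene.

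**Figure D2:**
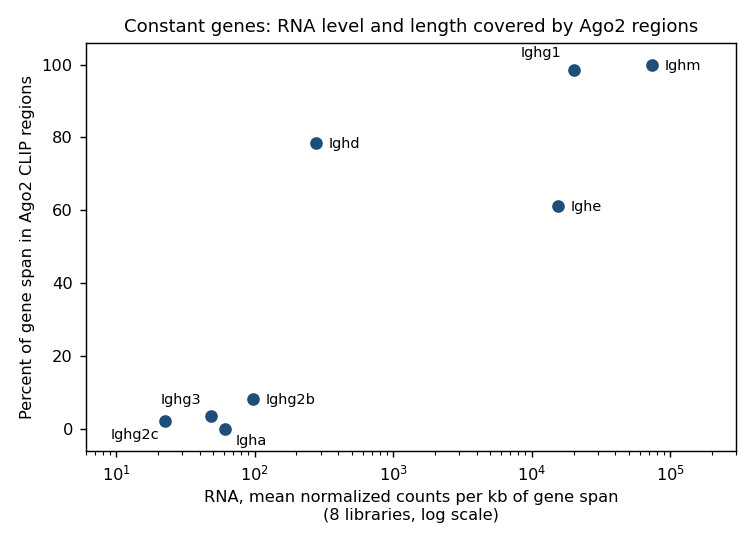
RNA level (mean normalized counts of 8 libraries per kb of gene span, log scale) against the percent of the gene span in Ago2 regions for the 8 constant genes (points). Ighd sits at 78.4% covered with an RNA level of 278.1, while Ighe has 61.3% at 15350, and the other genes with under 100 normalized counts per kb lie between 0 and 8.15%.

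The ends of the genes differed. The last 500 nt before the annotated 3′ end were covered in full in Ighm, Ighd and Ighg1, and not at all in Ighe, Ighg3, Ighg2b and Ighg2c. Igha had no covered bin there either, but its 3′ end is cut by the interval and only part of these 500 nt was examined. In Ighe the first 500 nt at the 5′ end were 75% covered, and the bare 3′ end was its longest gap. The longest gap was 240 nt in Ighd and 60 nt in Ighg1.

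The J segments and the stretch between them and Ighm were covered almost without a gap. The J interval (113428514 to the end) had 89.4% of its length in 15 regions, and the bins of Ighj1, Ighj2, Ighj3 and Ighj4 covered each of these segments in full. The stretch from the J segments to Ighm, which holds the donor switch region, had 99.8% of its 5.78 kb in 98 regions. It also spans 3 gene models with the biotype miRNA, Gm25747, Gm24022 and Gm22175, each covered in full on the strand of the genes, with mean differences of -0.05, 0.10 and 0.07.

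Upstream of Ighg1, 91 regions reached 8.86 kb from the gene and then ended. Of the first kb 99.5% was covered, of the window from 4 to 5 kb 97%, of that from 7 to 8 kb 52% and of that from 8 to 9 kb 78.5%. No region lay on the strand of the genes in the rest of the 25.7 kb to Ighg3. Upstream of Ighe, 24 regions reached 4.29 kb, and coverage was widest, at 77%, between 2 and 3 kb, against 23.5% in the first kb.

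The acceptors that IL-4 is not known to induce lacked such a block. Between Ighg1 and Ighg2b only 10 bins at the 3′ end of Ighg1 were covered, and between Ighg2b and Ighg2c none. No region on the strand of the genes lay within 18.5 kb upstream of Ighg3, and the regions beyond that were at and around the pseudogene Gm9134, 69.9% covered, and near the 3′ end of Ighd. Between Ighe and Igha the nearest of 11 regions lay 2.14 kb upstream of Igha, and 50.5% of the window from 8 to 9 kb, next to the 3′ end of Ighe, was covered. Switch regions consist of tandem repeats, and how reads with several matches were handled is not given, so regions inside them may include reads from other copies.

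**Figure D3:**
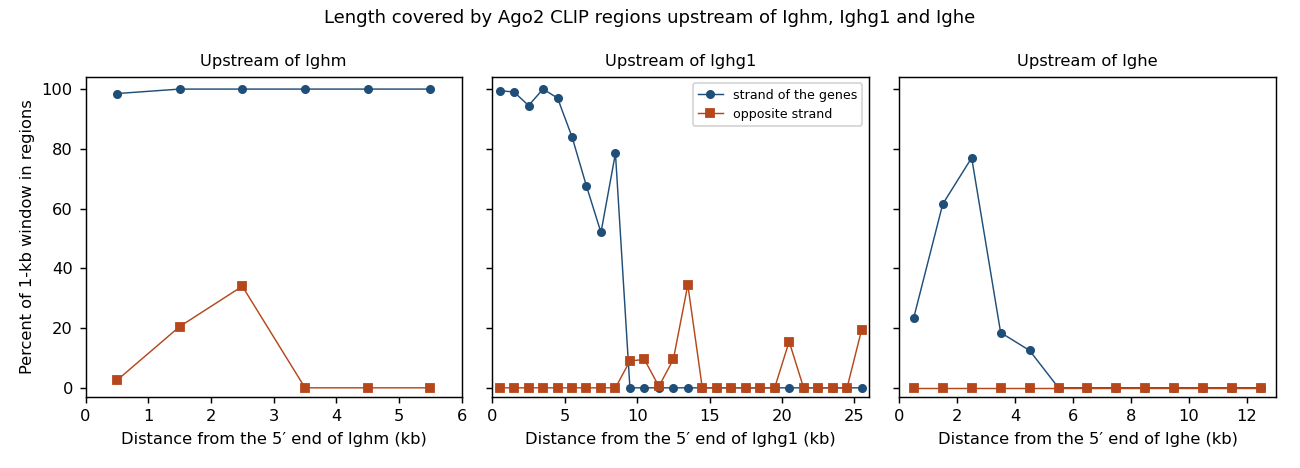
Percent of each 1-kb window that lies in Ago2 regions against distance in kb from the 5′ end of Ighm, Ighg1 and Ighe, on the strand of the genes (circles) and the opposite strand (squares). Upstream of Ighm all windows of the genes' strand are at least 98.5% covered, upstream of Ighg1 they are at 0 beyond 9 kb, where squares of the opposite strand begin, and upstream of Ighe all squares are at 0.

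The opposite strand held 30 of the 549 regions (5.46%) and 5.22% of the covered bins, and all 30 were in the stretches between constant genes. Bins of this strand covered 3.17% of Gm17421, a pseudogene annotated on it. They also covered 100% of Gm24022 and 12.8% each of Gm22175 and Gm25747, which are annotated on the genes' strand. In the constant gene and J spans 0 regions lay on the opposite strand, with 243 and 15 on the strand of the genes, while over all annotated genes 3.32% of regions and 2.02% of bins lay opposite to a gene only. Of the 30, 8 lay 0.50 to 2.43 kb upstream of Ighm, and each overlapped covered bins of the genes' strand in full. Another 14 lay between Ighg3 and Ighg1, from 9.30 to 25.6 kb upstream of Ighg1, and 8 between Ighd and Ighg3. None of these 22 overlapped a bin of the genes' strand. Upstream of Ighg1, regions therefore lay on the genes' strand up to 8.86 kb and on the opposite strand beyond 9.30 kb.

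The dCLIP output compares the conditions but does not name them, so its differences have a sign here but no genotype. The difference is dCLIP's value per bin, whose log base is not given, and a region's difference is the mean over its bins. A difference of at least 0.25 in size was found in 127 of the 549 regions (23.1%), against 16.9% of all regions. Positive ones made up 74 regions at Igh (13.5%), against 5.4% of all, and negative ones 53 (9.65%), against 11.5%. The threshold cut through a dense range, with 32 regions within 0.02 above it and 31 within 0.02 below, and no region reached 0.5.

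By hidden state, dCLIP's own class of each region, 135 regions at Igh were in state 0, 314 in state 1 and 100 in state 2. Over all bins the mean difference was -0.24 in state 0, -0.01 in state 1 and 0.27 in state 2. State 2 took 18.2% of regions at Igh and 9.28% of all, and state 0 took 24.6% at Igh and 33.1% of all. States 0 and 2 together took 42.8% at Igh, close to the 42.4% of all regions.

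Ighm and the stretch before it differed in the sign of their highest-scoring regions. The authors' summary gives each region of state 0 or 2 a score, used here only to rank regions, and 29 regions at Igh (5.28%) had a score of at least 30, against 0.554% of all regions. In Ighm all 9 such regions had a difference below 0, from -0.36 to -0.17, with scores of 51.7 to 207.8. In the stretch from the J segments to Ighm, 14 of 15 were above 0, with differences of 0.20 to 0.39, and the other was at -0.23. The remaining 5 were 1 positive region each in the J interval and Ighd, and in Ighg1 2 positive and 1 negative. Of the regions with such a score, 37.9% were below 0 over the locus and 35.0% over the whole output. The limit of 30 was picked after the values were seen.

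The highest score of the locus, 207.8, belonged to a region at the 3′ end of Ighm (113418565 to 113418649) with a difference of -0.17. In the stretch before Ighm the highest was 65.6 (113427095 to 113427134, difference 0.39), in the J interval 47.3 (113429375 to 113429454, 0.35) and in Ighg1 45.6 (113329550 to 113329624, 0.26). Ighd reached 38.4 (113406605 to 113406669, 0.30), Ighe 24.6 (113271175 to 113271224, 0.38) and the stretch before Ighg1 19.5 (113338975 to 113339009, 0.30). In the other segments and on the opposite strand no score was above 7.4.

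Regions of both signs occurred within the same gene span or stretch. Ighm held 8 regions at or below -0.25 (18.2% of its regions, against 11.5% of all) and 9 at or above 0.25 (20.5%, against 5.4%). Among regions with a score of at least 5 the most positive of the locus were in Ighm. They lay at 113420570 to 113420639 with a difference of 0.499 and at 113420305 to 113420354 with 0.49. The next was in the stretch before Ighm, at 113423905 to 113423949 with 0.47. The most negative were in Ighg1, with -0.43 at 113326030 to 113326054 and -0.39 at 113329920 to 113329989, and before Ighm, with -0.37 at 113425260 to 113425324.

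Per segment, 23 of the 98 regions before Ighm were positive past 0.25 and 5 negative. The counts were 17 positive and 9 negative of 69 in Ighg1, 3 and 10 of 91 in Ighd, 6 and 4 of 32 in Ighe, 8 and 10 of 91 before Ighg1, and 0 and 2 of 24 before Ighe. The mean difference over all bins was -0.09 in Ighm, 0.05 in the stretch before it, 0.03 over the J interval, -0.02 in Ighd, 0.0043 in Ighg1 and 0.0033 in Ighe, against -0.02 over the locus and -0.04 over all bins. Between Ighd and Ighg3 the covered bins on the strand of the genes averaged -0.11. Of the 21 regions there, 17 were below 0 (81.0%, against 66.4% of all regions) and 0 were in state 2, the class of 9.28% of all regions. On the opposite strand 1 of 30 regions (3.33%, against 16.9% of all regions) passed 0.25, in the positive direction.

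**Figure D4:**
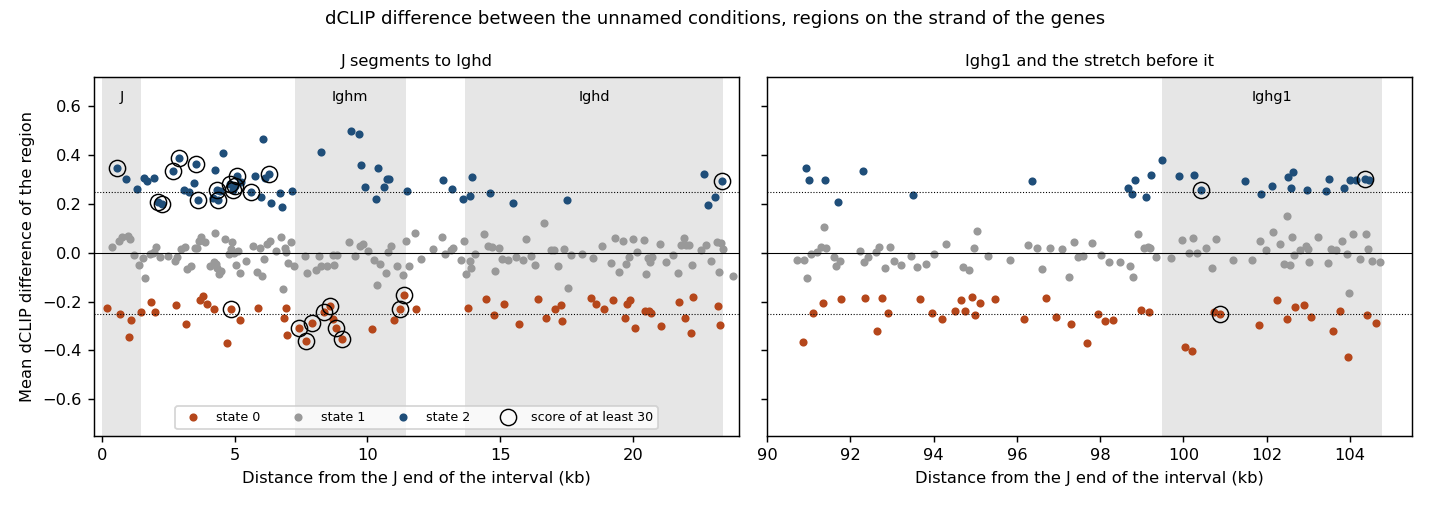
Mean dCLIP difference of each region on the strand of the genes against its distance from the J end of the interval in kb, from the J segments to Ighd (left) and over Ighg1 and the stretch before it (right); colours are the hidden states, rings mark a score of at least 30, and dotted lines mark 0.25 and -0.25. The 9 ringed regions of Ighm all lie below 0, while 14 of the 15 ringed regions before Ighm lie above 0.

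RNA-seq asked whether the annotated genes of the interval differed between KO and Flox cells. The stretches between constant genes had no RNA row of their own, apart from miRNA and pseudogene models, so their transcripts were not compared. Of the 20 gene rows in the interval, 16 passed the filter of a mean of 10 normalized counts and 0 passed an adjusted p of 0.05 (limma-trend, Benjamini-Hochberg over all genes), against 0.0687% of 13091 genes. At an unadjusted p of 0.05, 5 of the 16 were called, the 4 J segments and Ighd, against 15.1% of all genes. The 4 J rows are short neighbours within the 1.49-kb J interval, so they cannot be taken as 4 independent calls. DESeq2 on whole reads recovered from the values called 2, Ighj3 and Ighj4, and edgeR called 0; DESeq2 called 1.63% of all genes. In such bulk samples, fewer cells that transcribe a gene and less RNA per cell cannot be told apart.

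On the scale of log2(value + 1), the J segment rows had the highest fold changes of KO over Flox at the locus. DESeq2 put the miRNA gene model Gm22175 above them, with a log2 fold change of 1.18, although this row ranged from 0 to 52 normalized counts in KO libraries and 7 to 19.6 in Flox libraries and had 0.26 (SE 1.03) by limma. Ighj3 (113429085 to 113429132) had 331.9, 331.2, 454.4 and 221.3 normalized counts in KO libraries 1 to 4, against 136.7, 137.9, 193.4 and 202.5 in Flox libraries 1 to 4. Every KO library was above every Flox library, as in 4.18% of all genes (the reverse was found in 3.79%), and the log2 fold change was 0.97 (SE 0.22, adjusted p = 0.238 by limma and 0.0058 by DESeq2). In the authors' deposited table Ighj3 has a log2 fold change of 0.999 with an FDR of 0.00478, while Ighj4 has a log2 fold change of 1.08 and no p-value or FDR.

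Ighj4 (113428514 to 113428567) had 543.3, 507.3, 1148.1 and 421.4 normalized counts in KO libraries 1 to 4, against 249.4, 267.9, 393.7 and 332.7 in Flox libraries. Its groups did not overlap either, KO 3 stood far above the other KO libraries, and the log2 fold change was 0.98 (SE 0.27, adjusted p = 0.239 by limma and 0.0186 by DESeq2). Ighj1, with a log2 fold change of 0.92 (SE 0.32), and Ighj2, with 0.78 (SE 0.27), had overlapping groups, 352.1 to 1221 normalized counts in KO libraries against 249.4 to 418.4 in Flox libraries for Ighj1 and 612.9 to 1528.5 in KO libraries against 378.7 to 645.7 in Flox libraries for Ighj2. KO 3 held the highest value of both, and without it their log2 fold changes were 0.59 and 0.49, and that of Ighj4 was 0.67. In the Ago2 output the bins over Ighj3 averaged a difference of 0.36 and those over Ighj4 -0.19, so both signs occurred at rows whose RNA fold changes were alike. Reads of rearranged heavy chain mRNA and of unrearranged transcripts cannot be told apart in these rows, and whether counting used strand is not given.

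Per 1000 reads of Ighm, a ratio chosen after the data were seen, the sum of the J rows was 9.27, 9.75, 9.69 and 4.10 in KO libraries 1 to 4, against 4.73, 5.38, 4.28 and 4.15 in Flox libraries. KO 4 lay below all Flox libraries and the other KO libraries above them. The means were 8.20 ± 2.74 in KO and 4.64 ± 0.55 in Flox (SD, n = 4 each), with p = 0.143 in an exact two-sided permutation test, which can give no less than 0.0286.

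The constant genes had small fold changes against the spread of their libraries. Ighm had 258148, 185031, 448941 and 422478 normalized counts in KO libraries 1 to 4, against 214215, 210799, 341279 and 384980 in Flox libraries, which gave a log2 ratio of KO over Flox of 0.15 (SE 0.30, adjusted p = 0.823 by limma). In both genotypes libraries 3 and 4 were above libraries 1 and 2. Without KO 3 the fold change of Ighm was -0.03, and no direction is given for it.

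Ighg1 had 116809, 100706, 121515 and 114179 normalized counts in KO libraries 1 to 4, against 98496, 103908, 102410 and 100480 in Flox libraries, which gave a log2 ratio of KO over Flox of 0.16 (SE 0.10, adjusted p = 0.446 by limma). Ighe had 52443, 58532, 74767 and 73357 in KO libraries, against 57365, 51182, 59088 and 63098 in Flox libraries, also 0.16 (SE 0.13, adjusted p = 0.565 by limma). The groups overlapped in both genes. Ighd had 5415.9, 1896.1, 3712.6 and 2423 in KO libraries, against 2502.7, 1828.9, 2041.4 and 1808 in Flox libraries, which gave a log2 ratio of KO over Flox of 0.61 (SE 0.27, adjusted p = 0.317 by limma). KO 1 and KO 3 were above all Flox libraries, and KO 2 and KO 4 within their range. Without KO 1 the fold change of Ighd was 0.34, and without KO 1 and KO 3 together it was 0.080. Its unadjusted p was above 0.05 without any one of KO 1, KO 3, Flox 2, Flox 3 or Flox 4.

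The genes of classes that this culture is not known to induce were low. Ighg2b ranged from 333 to 657.9 normalized counts in KO libraries and 298.3 to 573.4 in Flox libraries, Igha from 272.9 to 557 in KO libraries and 213.8 to 364.7 in Flox libraries, and Ighg3 from 93.9 to 430.2 in KO libraries and 161.5 to 261.8 in Flox libraries. Ighg2c ranged from 17.4 to 189.2 in KO libraries and 35.1 to 112.3 in Flox libraries. Their log2 fold changes were 0.07 (SE 0.25), 0.29 (SE 0.24), 0.20 (SE 0.39) and 0.02 (SE 0.62), and those of Ighg2b, Ighg3 and Ighg2c turned negative when single libraries were left out, while that of Igha was 0.071 without KO 1.

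**Figure D5:**
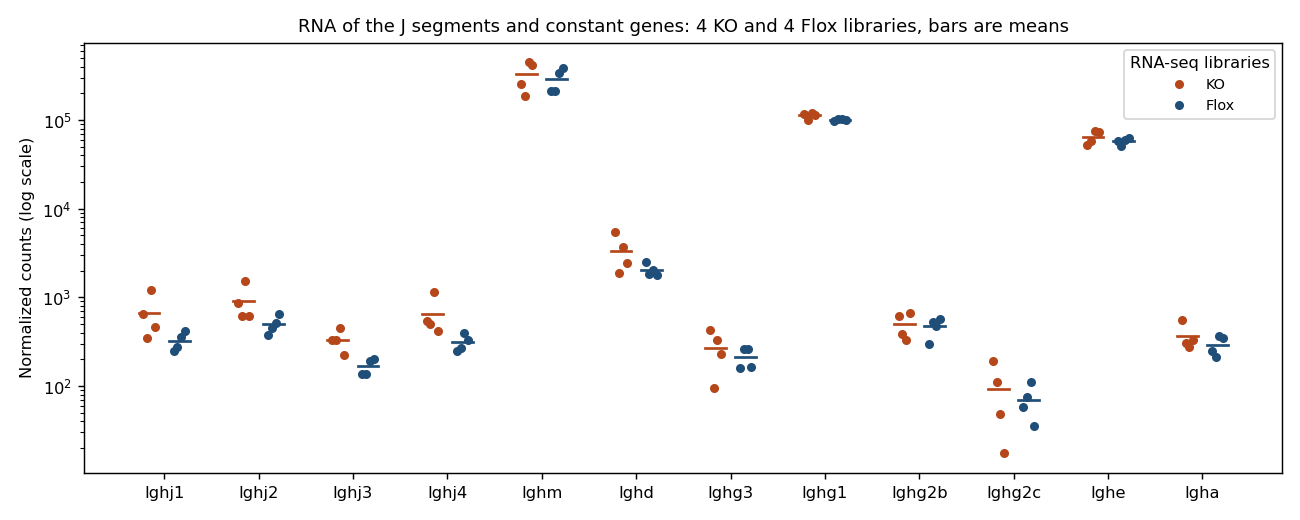
Normalized counts (log scale) of the J segments and constant genes in the 4 KO libraries (left of each pair) and the 4 Flox libraries (right); points are libraries and bars are means. All KO points lie above all Flox points at Ighj3 and Ighj4 and at no other gene shown.

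In the make-up of constant gene reads, which does not depend on library scaling, the means of Ighm, Ighg1 and Ighe differed between genotypes by less than the SD of either. Ighm took 62.7 ± 7.69% of constant gene reads in KO libraries and 62.9 ± 6.63% in Flox libraries, Ighg1 23.3 ± 5.44% in KO libraries and 23.3 ± 4.78% in Flox libraries, and Ighe 13.1 ± 2.52% in KO libraries and 13.1 ± 1.87% in Flox libraries (SD, n = 4 each). Ighd took 0.69 ± 0.38% in KO libraries and 0.47 ± 0.15% in Flox libraries (SD, n = 4 each), with p = 0.40 in an exact two-sided permutation test, the lowest of the 8 genes. The smallest p possible is 0.0286, so no single gene could pass after adjustment over 8. The difference of Ighm, KO minus Flox, was -0.29 percentage points, but 2.83 without KO 2 and -2.43 without KO 3. In both genotypes libraries 1 and 2 stood apart from libraries 3 and 4. Ighm took 59.4% and 53.3% in KO 1 and KO 2 and 57.4% and 57.2% in Flox 1 and Flox 2, but 69.1% and 68.8% in KO 3 and KO 4 and 67.4% and 69.8% in Flox 3 and Flox 4.

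Genes that act on the locus were read from lists, which were chosen with earlier results of these data known. Of 36 listed genes of the class switch machinery, 33 were found and tested and 0 passed in either direction by limma or DESeq2, with 4 (12.1%) at an unadjusted p under 0.05, a share below the 15.1% of all genes, and a median log2 fold change of 0.03, against -0.01 over all genes. The lowest p belonged to Paxip1, a partner of 53BP1 in break repair, with 4577 ± 522 normalized counts in KO and 3589 ± 194 in Flox, then Mdc1, a break-site adaptor, with 2644 ± 447 in KO and 1973 ± 246 in Flox. Rnf168, a ubiquitin ligase at breaks, had 2067 ± 124 in KO and 1699 ± 187 in Flox, and Zmynd8, a chromatin reader that binds the locus enhancer, 4413 ± 531 in KO and 3747 ± 312 in Flox (SD, n = 4 each).

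Of 36 listed genes of germline switch transcription and RNA processing, 34 were found and tested and 0 passed by limma, while 12 (35.3%, against 15.1% of all genes) had an unadjusted p under 0.05, 29 (85.3%, against 48.5%) had a positive fold change and the median was 0.16, against -0.01. DESeq2 called 4 of them (11.8%, against 1.63%), and these were also the 4 lowest by limma's p. Because this list was chosen with earlier results of these data known, its excess over all genes is not independent evidence. Pax5, a B lineage factor that binds Igh, had 2704 ± 225 normalized counts in KO and 1826 ± 253 in Flox, and Kmt2d, a histone methyltransferase, 3966 ± 276 in KO and 2778 ± 468 in Flox. Arid1a, a chromatin remodelling subunit, had 7208 ± 1051 in KO and 5176 ± 643 in Flox, and Med12, a Mediator subunit, 2956 ± 597 in KO and 1945 ± 308 in Flox (SD, n = 4 each). Their log2 fold changes were 0.57, 0.53, 0.48 and 0.60, with limma adjusted p between 0.205 and 0.239 and DESeq2 adjusted p between 0.00233 and 0.0283.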

How the data were processed

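The authors deposited RNA-seq as gene counts divided by 1 size factor per library (a signal rounded to 1 decimal), with log2 fold changes and p-values of KO over WT, the name of the Flox columns, per the file headers. For each 5-nt bin, the deposited dCLIP table holds a score for the difference between a pair of unnamed conditions and a hidden state, a class with no unit other than its number. Another 4 columns of that table, tags and mutated tags per condition, could not be matched to a genotype and were left out, but only after their values had been seen. The planned tag shares are given as shares of covered bins. The deposited summary has 1 score per region. The 962700 regions all matched the summary. The submitters' processing notes list STAR, Bowtie2, cutadapt, SAMtools, DESeq and DESeq2 (no versions given) and the build mm9. The gene positions are those of GRCm38, and 87.5% of regions overlapped a same-strand gene there, against 24.5% once moved by 1000000 nt. Positions are as deposited. Exons were not used here.

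Bins were assigned to gene spans and the stretches between them. Named regions were, per segment and strand, the one with the highest score, and the 3 of each sign with the largest difference among scores of at least 5. Other positions, windows and limits were picked after values were seen. Whole reads were recovered (100% of values whole within 0.1 read). Genes with a mean of at least 10 were tested by limma-trend 3.58.1 (R 4.3.3) on log2(value + 1), two-sided, with Benjamini-Hochberg adjustment over 13091 genes and a threshold of 0.05. Fold changes on that scale understate low genes. Alternatives used DESeq2 1.42.0, edgeR 4.0.16, other scalings, filters and pseudocounts, a replicate block, and libraries left out. Scripts were tested on simulated data. From each gene list, the 4 genes with the lowest p are named. The members and gene lists were chosen with earlier results of these data known, so no list is independent evidence of its direction.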

Additional observations from a re-analysis of the deposited data

Results flagged for a closer look

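Of 56 groups of 4 libraries checked at the locus, 3 held a library set apart from the rest of its group by more than Dixon's 95% limit, and chance gives about 1 in 20. Ighj4 had 1148.1 normalized counts in KO 3, above the other KO libraries. Ighe took 16.9% of constant gene reads in KO 2, above the other KO libraries. The J rows summed to 4.10 per 1000 Ighm reads in KO 4, below the other KO libraries. The causes were not tested.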

How the results depend on the processing

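Across all genes, the count of 9 called became 213 with DESeq2 and 8 to 17 when 1 library was left out. With the replicate number as a replicate block it was 11, with 0 at the locus. Libraries of the same number did not deviate together (correlations of -0.09 to 0.00), and none of the 8 correlated best with its own number, so by this measure the numbers do not pair them, although Ighm was higher in libraries 3 and 4 of both genotypes. At Ighm the block lowered the SE to 0.16, against 0.30 without it, and at Ighd the unadjusted p to 0.0035, against 0.042, with an adjusted p of 0.225. At the locus, DESeq2 called 2 and every other setting 0, including without KO 1 and KO 3 together, where 3 genes had an unadjusted p under 0.05. The J segments kept a positive log2 fold change in 18 of 18 settings, from 0.33 to 1.18.

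Rows with values near 0 reversed. Gm25747, at -0.07, became 0.0054 with a pseudocount of 10, 0.16 with DESeq2, 0.20 with edgeR and 0.66 without KO 1 and KO 3 together. The last setting gave -0.29 for Gm5190, -0.47 for Ighg3 and -0.52 for Ighg2c. With 1 library left out, log2 fold changes ranged from -0.48 to 0.34 for Gm25747, -0.23 to 0.34 for Gm5190, -0.091 to 0.64 for Ighg3, -0.14 to 0.24 for Ighg2b, -0.48 to 0.64 for Ighg2c, 0.34 to 0.85 for Ighd, 0.071 to 0.41 for Igha, -0.36 to 1.55 for Gm22175, -0.23 to 0.57 for Gm24022 and -0.028 to 0.40 for Ighm. The causes were not tested.

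For CLIP, the share of covered bins in the stretches between genes, 49.5% over both strands, was 42.6% with gene spans widened by 500 nt, 49.4% for regions of at least 20 nt and 49.2% by midpoint. The share of regions called different, 23.1%, was 42.8% by hidden state (against 42.4% of all regions) and 0 at a limit of 0.5. It was 71.1% among regions with a score of at least 5. All regions of state 1 have a score of 0, so this limit leaves out regions with differences near 0 and raises the share by design. The opposite strand held 5.22% of bins and 5.46% of regions. A limit of 10 tags was not run. Without replicates, the CLIP values have no stated error.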
